A study of Mus musculus with 15 samples.

Results

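The genes described here are those of glycolysis and of the cellular response to low oxygen, measured in mouse alveolar macrophages with and without a working NADPH oxidase. Members were the rows of the deposited gene count table whose symbol stood in a list of 32 genes, with 1 row per Ensembl gene identifier, and all 32 of the 32 were found among 40510 genes. Of them, 30 had enough counts to be tested. The other 2, Vegfa and Adm, were kept out by the filter on low counts, so no count over the tested members covers all 32.

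Macrophages were recovered by bronchoalveolar lavage, which is a wash of the airspaces, and were sorted as CD45+ Ly6G- SiglecF+ CD11c+ cells. The mice were C57BL/6 and either wild type (WT) or knockout (KO) for Cybb, the gene of the catalytic subunit of the phagocyte NADPH oxidase, whose loss causes chronic granulomatous disease. The 5 groups held 3 libraries each. CD11b-low cells came from WT and from KO mice, each aged 4 weeks or 12 weeks, and the fifth group was the CD11b-high fraction of 12-week KO mice. Each library came from a pool of 2 to 3 mice of 1 group and about 50000 cells, and the labels call the 3 per group independent. A WT CD11b-high group and a 4-week CD11b-high group were not analysed here, so the CD11b-high cells can be set only against KO and WT CD11b-low cells of the same age. The labels describe the mice as naive and give a whole-animal knockout, not one limited to macrophages. The same 3 WT libraries of 12 weeks serve as reference for both 12-week KO populations and as the older group of the WT age comparison, so those comparisons are not independent.

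Glycolysis splits glucose into pyruvate in the cytosol. Glucose enters through transporters of the Slc2a family, is trapped by hexokinases, is committed by phosphofructokinase, and leaves the cell as lactate through Slc16a carriers when pyruvate is not passed to mitochondria. In low oxygen the prolyl hydroxylases encoded by Egln genes lose activity, the alpha subunits encoded by Hif1a and Epas1 accumulate, and with their partner Arnt they raise transcription of glucose transporters, glycolytic enzymes, Pdk1, Vegfa and other targets. Alveolar macrophages live in an oxygen-rich and glucose-poor space and are known for low glycolytic activity compared with macrophages of other tissues.

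Library totals ran from 22856331 to 36458893 counts. Levels are in CPM, counts scaled to a common library total, with totals adjusted by the trimmed mean of M-values (TMM). Cybb stood at 129 to 221 CPM in the 9 KO libraries and 899 to 2319 CPM in the 6 WT libraries, so no library went against its genotype label. The markers of the sort were present in all 15 libraries, with Siglecf at 170 to 324 CPM and Itgax, the gene of CD11c, at 205 to 749 CPM. Itgam, the gene of CD11b, was at 30.7, 88.4 and 61.5 CPM in the CD11b-high libraries and at 0.805 to 6.26 CPM in the 12 CD11b-low libraries. In bulk RNA, fewer cells of a type and less RNA per cell cannot be told apart.

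Markers of other cells moved with some of the groups compared, and their part in the results was not tested. The summed level of 14 neutrophil markers was 470 to 563 CPM in CD11b-high libraries, 185 to 263 CPM in KO CD11b-low libraries of 12 weeks and 93.6 to 134 CPM in WT libraries of 12 weeks, while Ly6g was at 0 in all 15. Summed over 9 dendritic cell markers, levels were 152 to 638, 87.8 to 120 and 30.0 to 40.3 CPM in the same order. The sum of 12 T and NK cell markers was 34.5 to 98.7, 50.8 to 125 and 3.33 to 8.21 CPM. Sums of 9 erythroid markers were 1658 to 7580 CPM in WT and 46.3 to 152 CPM in KO libraries of 4 weeks, and 573 to 1311 CPM in WT and 68.6 to 189 CPM in KO libraries of 12 weeks. For 12 markers of monocyte-derived macrophages the sum was 614 to 861 CPM in CD11b-high, 434 to 685 CPM in KO CD11b-low and 217 to 589 CPM in WT libraries of 12 weeks.

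Eosinophil and B cell markers differed between libraries of a group as well as between groups. The sum of 7 eosinophil markers, Siglecf among them, was 1402, 505 and 631 CPM in CD11b-high, 869, 371 and 534 CPM in KO CD11b-low and 230 to 321 CPM in WT libraries of 12 weeks, while Epx, the eosinophil peroxidase gene, was at 0 in all 15. The sum of 8 B cell markers was 85.2, 20.95 and 9.76 CPM, 35.7, 20.0 and 9.14 CPM, and 2.88 to 9.30 CPM in the same order. Replicate 1 had the highest of both sums in each KO population of 12 weeks, and their part in the results was not tested. Single markers did not all follow the sums. Cd79a, a B cell gene, was lowest in replicate 1 of CD11b-high (0.245, 0.562 and 0.248 CPM) and KO CD11b-low libraries (0.0610, 0.239 and 0.131 CPM). Siglecf was lowest in replicate 1 of KO CD11b-low (185, 245 and 290 CPM) but not of CD11b-high libraries (201, 170 and 200 CPM).

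The deposited counts were also compared per length, as CPM per kilobase of annotated exon. Aldoa, the main aldolase, led with a median of 862 CPM per kilobase over the 15 libraries, followed by Ldha, which makes lactate from pyruvate, at 230 and Pkm, the last step to pyruvate, at 142. Aldoc, Eno1, Tpi1, Pfkfb4, Gpi1, Pfkp and Hk3 came next with medians from 55.8 down to 11.9. The remaining members lay at or below 8.09, and Ndrg1, Slc2a3, Egln3, Vegfa and Adm were the last, with medians of 0.117 or less. Neighbours in this order overlapped in range over libraries, for example Eno1 at 19.5 to 63.7 and Tpi1 at 34.7 to 68.8 CPM per kilobase.

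Gapdh, Pgk1 and Pgam1 stood low in that order although they belong to the same chain, with medians of 5.69, 4.88 and 0.726 CPM per kilobase. These genes share sequence with other loci, as counted in runs of 50 bases of their protein-coding GENCODE transcripts that recur in transcripts of another gene. The shared part was 58.4% for Gapdh, 68.0% for Pgk1 and 41.5% for Pgam1, and it was also large for Bnip3 (59.1%) and Eno1 (49.5%). For Gpi1 it was 24.5% and for Pkm 23.7%. How reads with several matching places were counted is not given in the sources used here, so the levels of these 7 genes are uncertain.

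**Figure D1:**
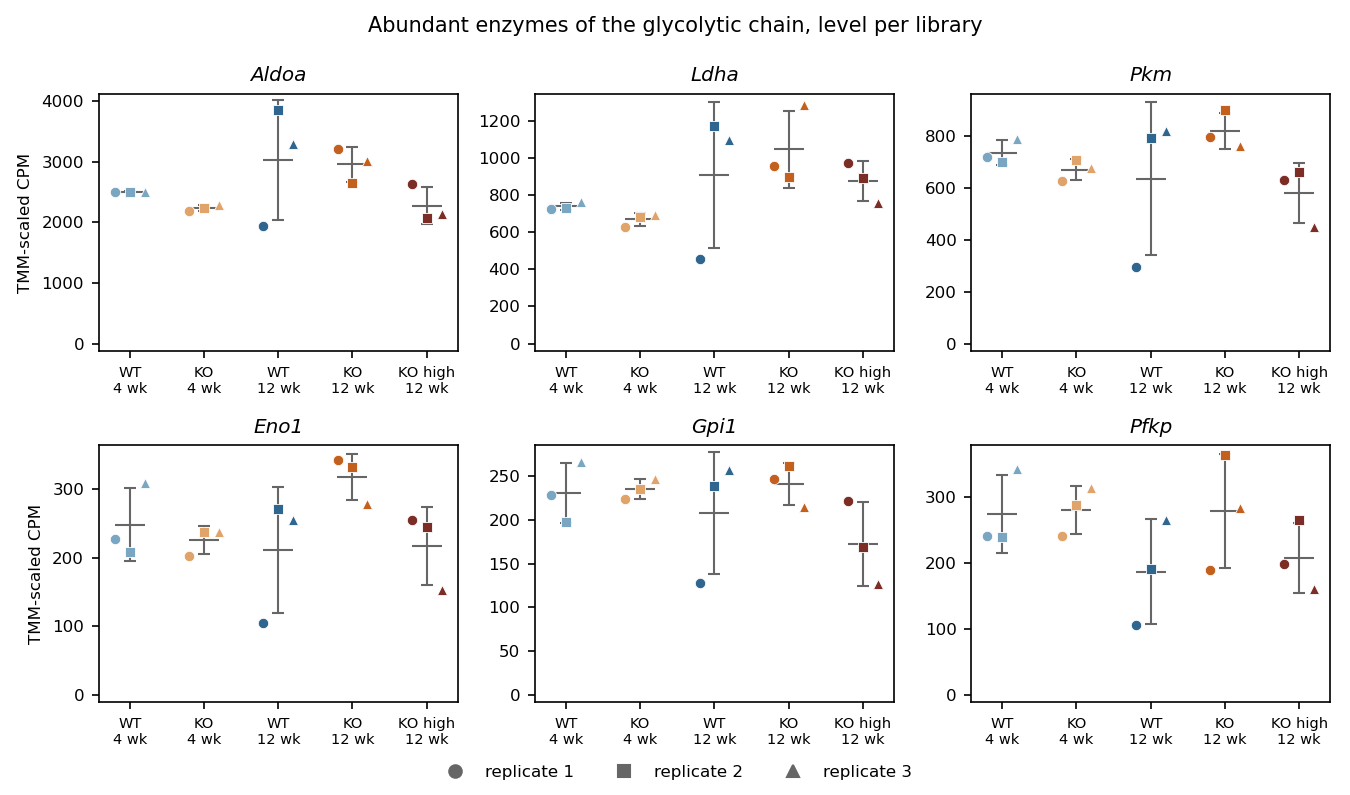
Level of 6 abundant glycolytic enzymes in each library, in TMM-scaled CPM on a linear axis from 0, by group (KO high is the CD11b-high KO group). Symbols are replicates, bars are the group mean and SD (n = 3), and replicate 1 of the WT libraries of 12 weeks is the lowest of the 15 points for each gene but Gpi1, for which CD11b-high replicate 3 is as low.

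One library stood apart in the glycolytic chain. In replicate 1 of the 12-week WT group the sum over the 16 chain enzymes, from hexokinases to lactate dehydrogenase, was 3326 CPM, against 6980 and 6415 CPM in the other 2 WT libraries of that age. The sum ran from 4262 to 6430 CPM in the 12 libraries of the remaining groups. Without Aldoa, which makes up a large part of it, the same library had 1383 CPM and the other 14 had 2125 to 3346 CPM. Pkm was 294 CPM there against 794 and 818 CPM, and Ldha was 453 CPM against 1170 and 1096 CPM. Of the 30 tested members 17 were lowest in this library within its group, against 38.8% of all tested genes, and the members' median log2 difference from the other 2 libraries was -0.31, against 0.05 over all genes. The summed alveolar macrophage markers were also lowest there, at 35557 CPM against 57610 and 54181 CPM. Chil3 made up most of that sum, at 23259 CPM against 43356 and 41276 CPM. Other markers were mixed. Siglecf was lowest there (213 against 308 and 308 CPM), and Marco lay between (275 against 346 and 227 CPM). Fabp4 (708 against 414 and 231 CPM) and Itgax (491 against 205 and 252 CPM) were highest there.

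Leaving this library out brought 8 further calls. With age in WT cells Ldha (log2 0.62), Bnip3 (0.94), Pgk1 (0.65) and Tpi1 (0.59) were then higher at 12 weeks, with edgeR adjusted p of 0.0301, 0.0206, 0.0468 and 0.0446. In CD11b-high KO against WT cells Aldoa (log2 -0.66) and Pfkfb4 (-0.62) were then lower and Hif1a (1.07) higher, with edgeR adjusted p of 0.0202, 0.0311 and 0.0128. The eighth was Vegfa, which had too few counts for the full fit but was tested in this one (edgeR adjusted p = 0.0460). It entered only through its 21 and 31 counts in CD11b-high replicates 2 and 3, the group in which it was then called higher. It was also tested without WT replicate 2 or 3, and did not pass (edgeR adjusted p = 0.0871 and 0.0663). Calls that were lost without it are named with their genes.

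Differences were tested in 1 edgeR quasi-likelihood fit over 13284 genes, with Benjamini and Hochberg adjustment over all of them and a threshold of 0.05 on the adjusted p. Over 7 comparisons 11 of the 32 members passed at least once. At 12 weeks, KO CD11b-low against WT cells gave 1 higher member and none lower, in a comparison in which 2.60% of all tested genes were called higher and 3.10% in either direction. CD11b-high KO against CD11b-low WT cells gave 7 higher members, where 9.23% of genes were higher, and 1 lower, where 5.60% were lower (14.8% in all). With age in WT cells 1 member was higher at 12 weeks, as 8.79% of genes were, and 5 were lower, as 8.39% of genes were (17.2% in all). With age in KO cells 1 member was higher, where 4.81% of genes were higher and 6.89% passed in either direction. In the same order the calls made up 3.3, 26.7, 20.0 and 3.3% of the 30 tested members, and the differences from the shares of all genes were not tested.

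Libraries that do not overlap between 2 groups were more frequent than calls. Between KO CD11b-low and WT cells of 12 weeks 6 members were higher without overlap (9.82% of all genes were) and 1 lower (7.99%). For CD11b-high KO against WT cells 9 were higher (15.6% of genes) and 1 lower (10.8%), and for CD11b-high against CD11b-low KO cells 4 were higher (7.91%) and 5 lower (5.86%). At 4 weeks 2 were higher in KO cells (3.91%) and 3 lower (4.72%). With age 3 were higher (15.6%) and 8 lower (18.7%) in WT cells, and 8 higher (19.0%) and 5 lower (19.6%) in KO cells.

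No member passed in the other 3 comparisons. For KO against WT cells at 4 weeks 0.0979% of genes passed, 0 members had an unadjusted edgeR p under 0.05, and DESeq2 and limma voom called 0. For CD11b-high against CD11b-low KO cells 0.693% of genes passed, 4 members had an unadjusted edgeR p under 0.05, and DESeq2 and limma voom called 0. For the interaction of genotype and age 0.248% of genes passed, 3 members had an unadjusted edgeR p under 0.05, and both other tools called 0. The members' median log2 fold change was 0.35 for KO against WT at 12 weeks and -0.01 at 4 weeks, where the medians over all genes were -0.04 and -0.01.

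**Figure D2:**
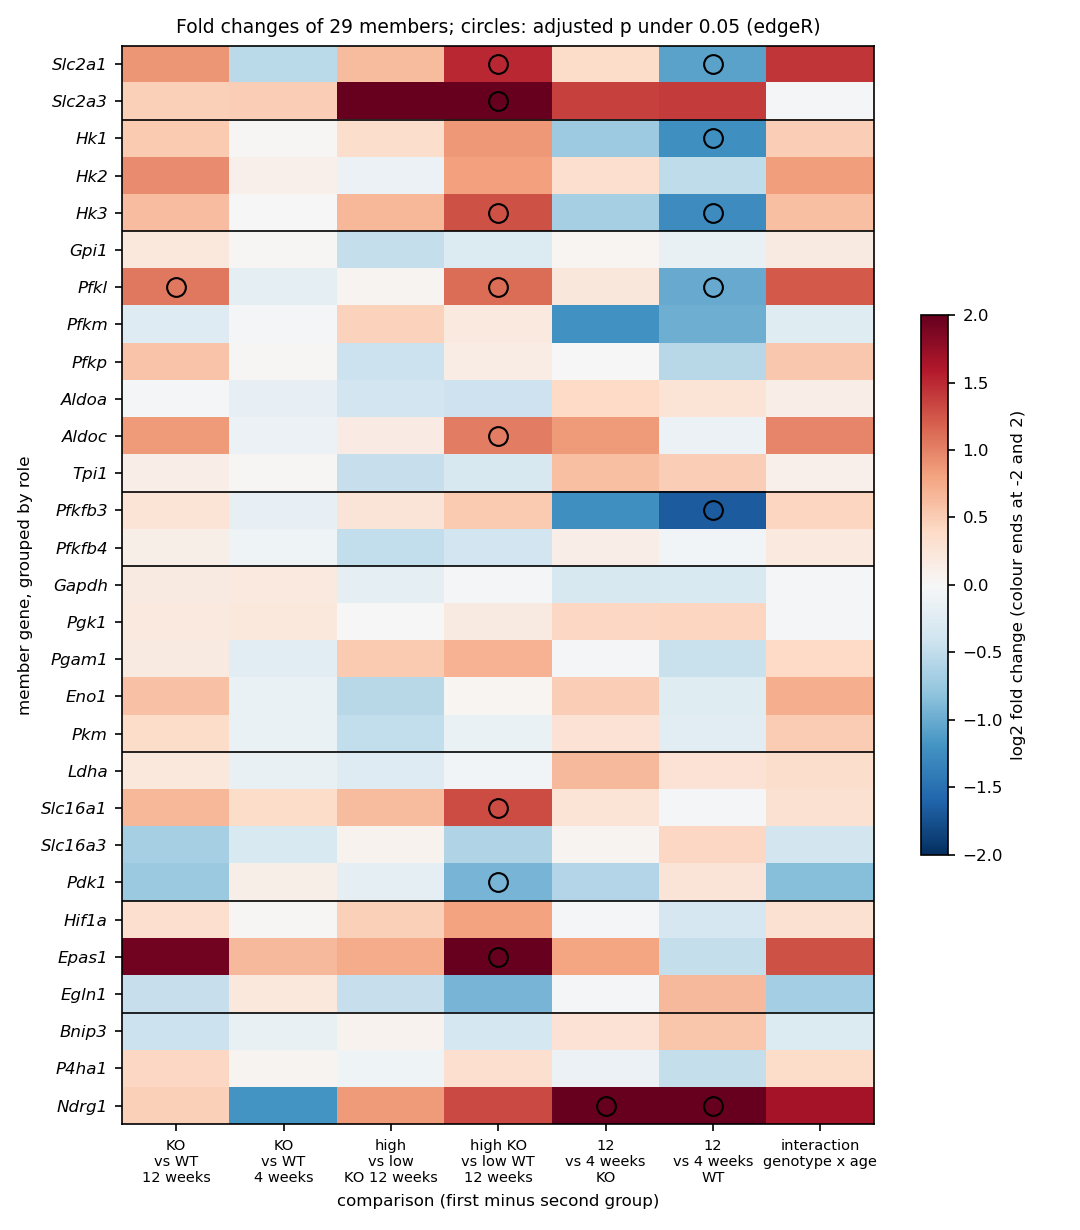
Log2 fold change of 29 tested members (rows, grouped by role) in 7 comparisons (columns), red where the first group is higher and blue where the second is, with circles at adjusted p under 0.05 in edgeR; Egln3 is left out because it has 0 counts in 9 libraries. Circles gather in the comparison of CD11b-high KO with WT cells (8) and in the WT age comparison (6), and the 4-week genotype column has none.

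The DNA just upstream of these genes is shown because many of them are known targets of HIF, which can bind near start sites. Sites outside these stretches were not searched. Windows of 250 bases before the start site came from the RefSeq promoter table (GRCm38.p6), which held 43 windows for 29 of the 32 members and none for Slc2a3, Epas1 and Ndrg1. The core of the HIF binding motif was searched as ACGTG and GCGTG on both strands, so CACGTG counts as 2 matches. At least 1 match was found for 27 of the 29 members (93.1%), against 41.5% of the 27025 genes with windows, and 9 members had a window with 3 or more matches, as 7.5% of genes did. These shares count any window of a gene, and several windows give more room for a match. Counted per window, 35 of the 43 member windows held a match, against 38.6% of all 32851 windows. Member windows were also richer in G and C, with a median of 60.4% against 52.4%, and their part in the difference was not tested. A match is a run of letters and not a measured binding site.

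The stretches below were chosen as 5 members that passed a test in CD11b-high KO cells and 1, Bnip3, that passed in no comparison of the full fit. Slc2a3 and Epas1 passed there too but have no window. Aldoc also passed there and is not printed: each of its windows held 1 match, and the parts outside annotated exons held 0. They are printed 5′ to 3′ on the gene's strand with the matches in capitals. Coordinates on GRCm38.p6 are chr4:119108495-119108710 (plus strand) for Slc2a1, chr13:55021386-55021635 (minus strand) for Hk3, chr10:78009808-78010004 (minus strand) for Pfkl, chr3:104638414-104638663 (plus strand) for Slc16a1, chr2:71872974-71873223 (plus strand) for Pdk1 and chr7:138909520-138909756 (minus strand) for Bnip3. All 6 lie outside annotated exons.
Slc2a1: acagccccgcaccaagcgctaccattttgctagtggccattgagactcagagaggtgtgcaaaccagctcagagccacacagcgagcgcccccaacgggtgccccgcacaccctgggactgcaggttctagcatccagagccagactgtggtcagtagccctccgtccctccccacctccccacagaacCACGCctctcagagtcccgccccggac
Hk3: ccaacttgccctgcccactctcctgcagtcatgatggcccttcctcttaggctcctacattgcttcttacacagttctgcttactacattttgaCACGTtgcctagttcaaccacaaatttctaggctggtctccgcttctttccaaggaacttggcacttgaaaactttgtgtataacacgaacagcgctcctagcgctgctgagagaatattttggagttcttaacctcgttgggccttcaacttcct
Pfkl: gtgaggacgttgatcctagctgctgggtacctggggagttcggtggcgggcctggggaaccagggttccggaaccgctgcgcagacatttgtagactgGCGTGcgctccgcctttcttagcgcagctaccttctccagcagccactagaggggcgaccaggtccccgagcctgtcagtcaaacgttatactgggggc
Slc16a1: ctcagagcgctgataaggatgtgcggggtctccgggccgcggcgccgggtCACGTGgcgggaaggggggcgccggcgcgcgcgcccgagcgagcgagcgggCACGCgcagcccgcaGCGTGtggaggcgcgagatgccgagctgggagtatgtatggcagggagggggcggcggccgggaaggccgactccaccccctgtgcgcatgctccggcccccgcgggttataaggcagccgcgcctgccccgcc
Pdk1: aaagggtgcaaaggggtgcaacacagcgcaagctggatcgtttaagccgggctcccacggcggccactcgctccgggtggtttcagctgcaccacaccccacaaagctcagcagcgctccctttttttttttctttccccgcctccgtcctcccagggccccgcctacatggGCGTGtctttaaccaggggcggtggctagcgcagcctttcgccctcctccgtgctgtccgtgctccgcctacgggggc
Bnip3: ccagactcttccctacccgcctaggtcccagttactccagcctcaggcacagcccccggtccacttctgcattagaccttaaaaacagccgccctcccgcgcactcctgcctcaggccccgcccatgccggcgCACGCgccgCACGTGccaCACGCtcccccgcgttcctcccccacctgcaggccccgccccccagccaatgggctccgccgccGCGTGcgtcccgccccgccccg
Bnip3 held 5 matches and Slc16a1 4, while Slc2a1, Hk3, Pfkl and Pdk1 held 1 each in the printed stretch. Slc16a1 was higher and Pdk1 lower in the same comparison, and Bnip3 did not pass in any comparison of the full fit.

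Both glucose transporters rose in CD11b-high KO cells against WT cells. Slc2a1, the widely expressed glucose carrier, was at 26.6, 25.4 and 23.1 CPM in the CD11b-high libraries, 19.6, 15.6 and 13.4 CPM in KO CD11b-low libraries of 12 weeks, and 4.03, 8.50 and 13.8 CPM in WT libraries of that age. The CD11b-high values lay above all others of that age, and the WT values spread by more than 3-fold. Against WT cells Slc2a1 was 2.86-fold higher in CD11b-high cells (log2 1.52 ± 0.32 SE, edgeR adjusted p = 0.00455), and it passed in each of the 6 fits that left out 1 library. It was lost when the fit held only those 2 groups (0.06045). In KO CD11b-low against WT cells of 12 weeks it was 1.85-fold higher with an edgeR adjusted p of 0.138. It passed there only without WT replicate 3 (log2 1.37, edgeR adjusted p = 0.0283).

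At 4 weeks Slc2a1 was at 19.4, 16.6 and 19.0 CPM in WT and 10.6, 13.6 and 13.6 CPM in KO libraries. The groups did not overlap, yet the difference did not pass (log2 -0.54 ± 0.32, edgeR adjusted p = 1), and the erythroid marker sums given above separated the same libraries in the same direction. The part of red cell precursors in the Slc2a1 difference was not tested. At 12 weeks the erythroid sums were again higher in WT than in KO CD11b-low libraries (573 to 1311 against 70.2 to 149 CPM). Mean Slc2a1 was lower in WT there (8.77 against 16.2 CPM). With age in WT cells Slc2a1 fell 2.09-fold (log2 -1.07 ± 0.32, edgeR adjusted p = 0.0301). That call was lost without any of 5 of the 6 libraries, with edgeR adjusted p from 0.0501 without WT replicate 1 of 12 weeks to 0.0851 without WT replicate 1 of 4 weeks. It held without WT replicate 3 of 12 weeks, the highest of that group, and was lost with only the 2 groups in the fit (0.1185).

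Slc2a3, a high-affinity glucose carrier of leukocytes and neurons, was near the detection limit outside the CD11b-high group. Its level was 0.978, 5.62 and 5.70 CPM in CD11b-high libraries (24, 120 and 184 counts), 0.458, 0.537 and 0.914 CPM in KO CD11b-low libraries and 0.483, 0.3502 and 0.548 CPM in WT libraries of 12 weeks. All 3 CD11b-high values were above the rest, but replicate 1 exceeded the highest KO CD11b-low library by little. Against WT cells the rise was 8.91-fold (log2 3.16 ± 0.86, edgeR adjusted p = 0.0213). It did not pass without CD11b-high replicate 2 (0.0833), CD11b-high replicate 3 (0.0701), WT replicate 1 (0.0565) or WT replicate 2 (0.0725).

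Deviations of same-numbered CD11b-high and CD11b-low KO libraries correlated at 0.113 to 0.429. Same-numbered libraries of other groups reached 0.364 and libraries of different number 0.229. Among the groups of 12 weeks all same-numbered pairs were positive (0.019 to 0.429). Pairs of different number there ran from -0.362 to 0.167. Whether libraries were paired is not established, and the main fit did not model the replicate number. Against CD11b-low KO cells Slc2a3 was 6.43-fold higher (log2 2.69 ± 0.83), with an edgeR adjusted p of 0.187 in the fit of all groups. With only these 2 groups and the replicate number as a block, the log2 fold change was 2.47 and the edgeR adjusted p 0.0367, and Slc2a3 was then the 1 member that passed, as did 252 genes in place of 92. It also passed without the filter on low counts (edgeR adjusted p = 0.000767). Leaving out CD11b-high replicate 1 gave a log2 fold change of 3.14 (edgeR adjusted p = 0.0588).

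**Figure D3:**
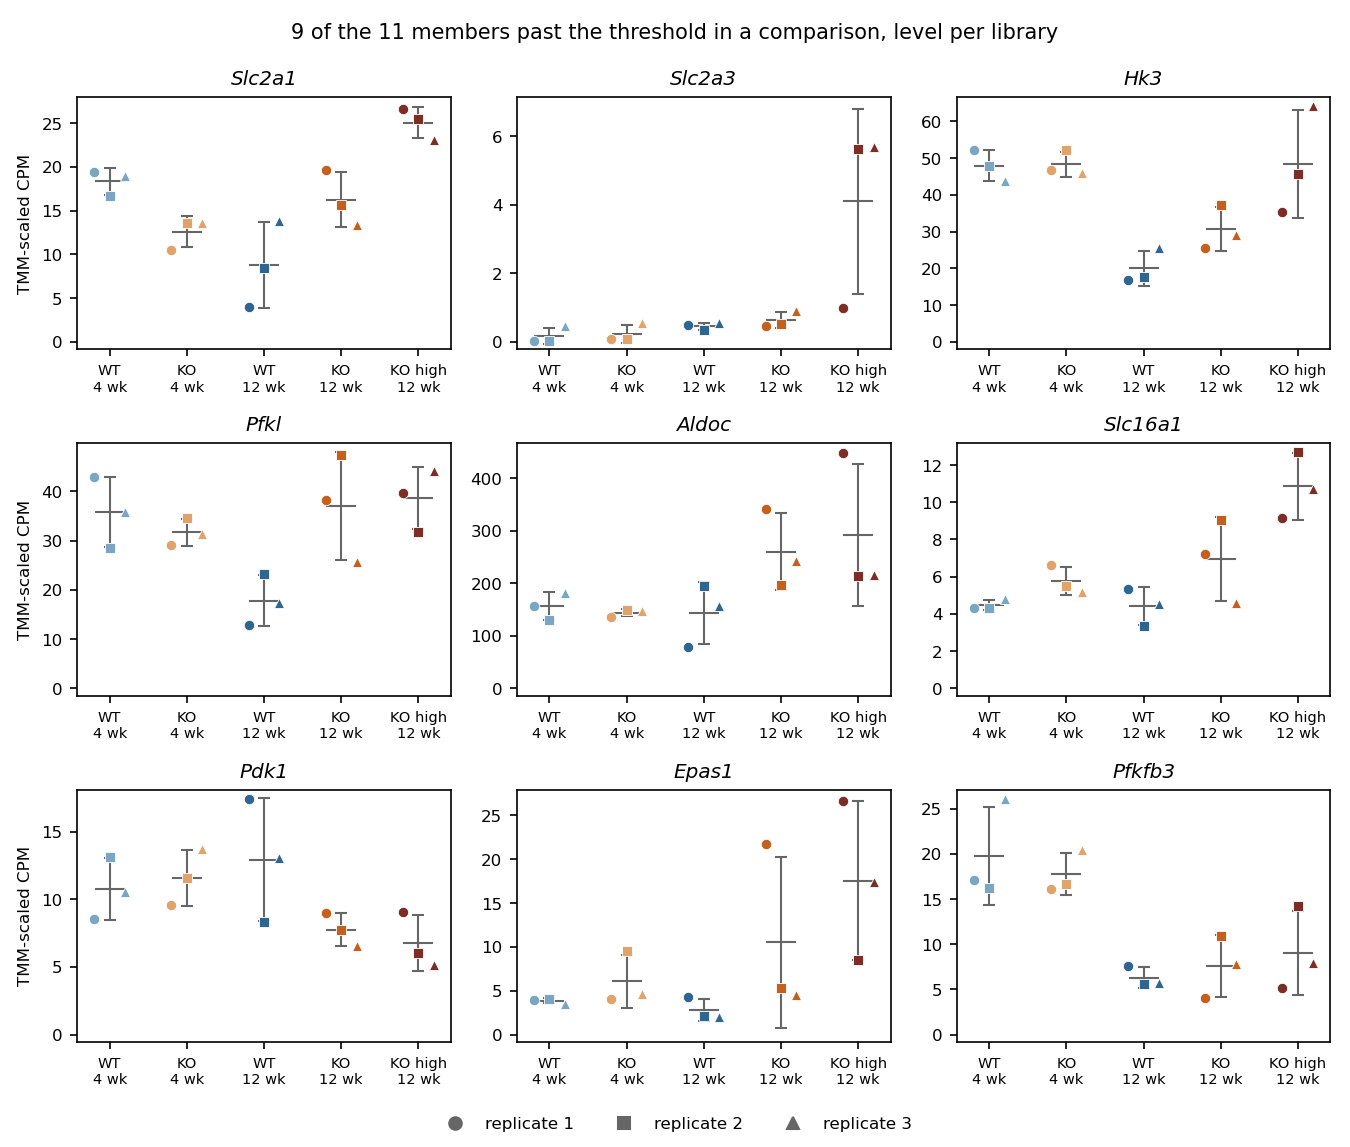
Level of 9 of the 11 members that passed the threshold in some comparison, in TMM-scaled CPM on linear axes from 0, by group (KO high is the CD11b-high KO group). Symbols are replicates and bars the mean and SD (n = 3); Slc2a1 at 23.1 to 26.6 CPM and Slc16a1 at 9.13 to 12.7 CPM in CD11b-high libraries lie above all WT libraries, and Pfkfb3 is lower in all 9 libraries of 12 weeks than in the 6 of 4 weeks.

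Hexokinases phosphorylate glucose and so keep it in the cell. Hk3, the form typical of myeloid cells, was at 52.2, 47.9 and 43.7 CPM in WT and 46.7, 52.2 and 46.0 CPM in KO libraries of 4 weeks. At 12 weeks it was at 16.8, 17.7 and 25.5 CPM in WT, 25.5, 37.2 and 29.1 CPM in KO CD11b-low and 35.3, 45.6 and 64.1 CPM in CD11b-high libraries. Levels of the 4-week libraries lay above all CD11b-low libraries of 12 weeks in both genotypes, and CD11b-high libraries reached back to the 4-week range.

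Hk3 fell 2.40-fold with age in WT cells (log2 -1.26 ± 0.25, edgeR adjusted p = 0.00478), a call kept under each of the 12 alternatives. In KO cells the difference with age was 1.58-fold and did not pass (log2 -0.66 ± 0.25, edgeR adjusted p = 0.107). The change with age was not shown to differ between genotypes (interaction log2 0.60 ± 0.35, edgeR adjusted p = 0.655). CD11b-high cells had 2.42-fold more Hk3 than WT cells of 12 weeks (log2 1.27 ± 0.25, edgeR adjusted p = 0.00246), lost only when the fit held those 2 groups alone (0.0589).

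Hk2, the hexokinase that HIF is known to raise, was at 47.5, 31.6 and 23.4 CPM in KO CD11b-low, 45.9, 28.5 and 19.9 CPM in CD11b-high and 22.1, 14.2 and 17.0 CPM in WT libraries of 12 weeks. In both KO populations replicate 1 was highest and replicate 3 lowest. KO CD11b-low cells did not overlap WT cells, but the 1.92-fold difference did not pass (edgeR adjusted p = 0.102). For CD11b-high against WT cells Hk2 passed only without CD11b-high replicate 3 (log2 1.06, edgeR adjusted p = 0.0358) or with limma voom (0.0331). Hk1, the ubiquitous form, was the least abundant, at 7.24, 6.25 and 5.05 CPM in WT libraries of 4 weeks and 3.78, 1.496 and 2.69 CPM in those of 12 weeks. The 2 sets do not overlap. Its 2.33-fold fall with age in WT cells (log2 -1.22 ± 0.40, edgeR adjusted p = 0.0456) was lost in 5 of the 6 fits that left out a library, with edgeR adjusted p from 0.0710 without WT replicate 3 of 4 weeks to 0.160 without WT replicate 2 of 12 weeks. It held without WT replicate 1 of 12 weeks. It was also lost with the replicate block (0.0547), with size factors in place of TMM (0.0512) and with only the 2 groups in the fit (0.0677).

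In the upper chain Pfkl, the liver-type subunit of phosphofructokinase, was the single member that passed between KO CD11b-low and WT cells. It was at 38.2, 47.4 and 25.5 CPM in KO CD11b-low, 39.7, 31.8 and 44.2 CPM in CD11b-high and 12.8, 23.2 and 17.4 CPM in WT libraries of 12 weeks. Every KO library of that age was above every WT library, though the nearest pair stood at 25.5 and 23.2 CPM. KO CD11b-low cells had 2.08-fold more (log2 1.06 ± 0.27, edgeR adjusted p = 0.0410). This call was lost without KO replicate 1 (0.0688), KO replicate 2 (0.198), WT replicate 1 (0.107) or WT replicate 3 (0.0763), with only the 2 groups in the fit (0.279), and under limma voom (0.0968).

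CD11b-high cells had 2.17-fold more Pfkl than WT cells (log2 1.12 ± 0.27, edgeR adjusted p = 0.0106), and this passed in all 6 fits without a library but not when the fit held only those 2 groups (0.0934). At 4 weeks Pfkl was at 42.8, 28.6 and 35.7 CPM in WT and 29.1, 34.6 and 31.4 CPM in KO libraries, which overlap (edgeR adjusted p = 1). In WT cells it fell 2.01-fold by 12 weeks (edgeR adjusted p = 0.0174), lost without WT replicate 1 of 4 weeks (0.0814) or WT replicate 3 of 4 weeks (0.0537), or with only the 2 groups in the fit (0.0638). In KO cells it was 1.17-fold higher with age and did not pass (edgeR adjusted p = 0.653). Pfkl had the lowest unadjusted p of the members in the interaction (0.00460, log2 1.23 ± 0.38), which was 0.287 after adjustment in edgeR.

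The other phosphofructokinase subunits did not pass in any comparison. Pfkp, the platelet type, was at 105.7 to 364 CPM and Pfkm, the muscle type, at 0.620 to 3.84 CPM over the 15 libraries. Gpi1, which turns glucose 6-phosphate to fructose 6-phosphate, was at 127 to 266 CPM. Tpi1, which interconverts the products of aldolase, was higher in all 3 libraries of 12 weeks than in all 3 of 4 weeks in each genotype (135, 169 and 166 against 103, 108 and 122 CPM in WT, and 189, 162 and 161 against 102, 121 and 116 CPM in KO libraries). Its differences of 1.41-fold in WT and 1.51-fold in KO cells did not pass (edgeR adjusted p = 0.115 and 0.0901). In KO cells it passed with DESeq2 (0.0297), limma voom (0.0234) and only the 2 groups in the edgeR fit (0.0427). In WT cells it passed with limma voom (adjusted p = 0.00411) and, as given above, without WT replicate 1 of 12 weeks.

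Aldoc, the aldolase best known from brain, was at 341, 196 and 242 CPM in KO CD11b-low, 448, 213 and 216 CPM in CD11b-high and 79.2, 195 and 156 CPM in WT libraries of 12 weeks. Replicate 1 was the highest in both KO populations, as for the eosinophil and B cell marker sums, and the lowest in WT cells. CD11b-high cells had 2.04-fold more than WT cells (log2 1.03 ± 0.34, edgeR adjusted p = 0.0479), and KO CD11b-low cells 1.81-fold more without passing (0.168). The CD11b-high call was lost without CD11b-high replicate 1 (log2 0.57, edgeR adjusted p = 0.247), CD11b-high replicate 2 (0.0555), WT replicate 1 (0.123) or WT replicate 3 (0.0721). It was also lost with limma voom (log2 0.58, adjusted p = 0.111), and in edgeR with the replicate block (0.0705), with size factors in place of TMM (0.0538) and with only the 2 groups in the fit (0.228). Aldoa did not pass in any comparison of the full fit and ranged from 1943 to 3857 CPM. With limma voom it was lower in CD11b-high than in WT cells (log2 -0.65, adjusted p = 0.00935). It was also higher with age in WT cells there (log2 0.45, limma voom adjusted p = 0.0170).

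Pfkfb3 and Pfkfb4 encode bifunctional enzymes that set fructose 2,6-bisphosphate, the activator of phosphofructokinase. Pfkfb3, the more strongly kinase-active form, was at 17.1, 16.2 and 26.03 CPM in WT and 16.2, 16.6 and 20.4 CPM in KO libraries of 4 weeks. At 12 weeks it was at 7.61, 5.54 and 5.66 CPM in WT, 4.06, 10.9 and 7.77 CPM in KO CD11b-low and 5.14, 14.2 and 7.87 CPM in CD11b-high libraries. All 6 libraries of 4 weeks were above all 9 of 12 weeks.

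Pfkfb3 fell 3.15-fold with age in WT cells (log2 -1.66 ± 0.38, edgeR adjusted p = 0.00808), and the call was kept under each of the 12 alternatives. In KO cells the difference was 2.34-fold and just missed the threshold (log2 -1.23 ± 0.37, edgeR adjusted p = 0.0540). It passed under 6 of the 12 alternatives, among them DESeq2 (0.0224), limma voom (0.0133) and the fit without KO replicate 2 of 12 weeks (log2 -1.59, edgeR adjusted p = 0.0272). The interaction was log2 0.43 ± 0.52 (edgeR adjusted p = 0.828). Pfkfb4 was at 137 to 261 CPM and passed in no comparison of the full fit. With limma voom it was lower in CD11b-high than in WT cells (adjusted p = 0.0270).

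The lower chain runs from glyceraldehyde 3-phosphate to pyruvate and gave no call among its 5 members in any of the 7 comparisons in edgeR, where the lowest unadjusted p was 0.0681 (Eno1, KO CD11b-low against WT cells of 12 weeks). DESeq2 called none, and limma voom called 1, Pgk1, with age in WT cells (log2 0.58, adjusted p = 0.0240). Pkm was at 797, 900 and 764 CPM in KO CD11b-low, 632, 664 and 449 CPM in CD11b-high and 294, 794 and 818 CPM in WT libraries of 12 weeks. The CD11b-high libraries were all below the KO CD11b-low libraries (log2 -0.50 ± 0.30, edgeR adjusted p = 0.654), as they were for Eno1, Tpi1, Aldoa and Pfkfb4. Eno1, the enolase, was at 343, 332 and 279 CPM in KO CD11b-low against 105, 272 and 255 CPM in WT libraries, 1.51-fold higher without passing (edgeR adjusted p = 0.281).

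Ldha and the lactate carriers decide the export of lactate, and Pdk1 keeps pyruvate out of mitochondria by inhibiting pyruvate dehydrogenase. Slc16a1, the broadly expressed carrier, was at 9.13, 12.7 and 10.7 CPM in CD11b-high, 7.23, 9.07 and 4.57 CPM in KO CD11b-low and 5.35, 3.34 and 4.52 CPM in WT libraries of 12 weeks. CD11b-high values were above those of both other groups, while KO CD11b-low and WT values overlapped. CD11b-high cells had 2.47-fold more than WT cells (log2 1.30 ± 0.29, edgeR adjusted p = 0.00612), and the call was lost only when the fit held those 2 groups alone (0.0583).

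Slc16a3, the carrier suited to export from glycolytic cells, lay the other way at 12 weeks. It was at 4.85, 8.29 and 8.06 CPM in KO CD11b-low, 5.38, 4.12 and 12.7 CPM in CD11b-high and 11.2, 10.9 and 11.6 CPM in WT libraries. The KO CD11b-low libraries were below all WT libraries, but the 1.59-fold difference did not pass (edgeR adjusted p = 0.297). CD11b-high replicate 3 was above all WT libraries and the other 2 were below them. Without that replicate the log2 fold change against WT cells was -1.24 with an edgeR adjusted p of 0.0206, against -0.60 and 0.283 with it.

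Pdk1 was at 9.09, 6.05 and 5.18 CPM in CD11b-high, 9.0, 7.75 and 6.56 CPM in KO CD11b-low and 17.4, 8.34 and 13.1 CPM in WT libraries of 12 weeks. WT replicate 2 lay within the range of both KO populations. CD11b-high cells had 1.91-fold less than WT cells (log2 -0.94 ± 0.31, edgeR adjusted p = 0.0476). This call was lost without CD11b-high replicate 2 (0.165), CD11b-high replicate 3 (0.155), WT replicate 1 (0.142) or WT replicate 3 (0.0773). It was also lost with the replicate block (edgeR adjusted p = 0.0523), with only the 2 groups in the fit (0.187) and with limma voom (0.0933). Ldha was at 726 to 760 CPM in WT libraries of 4 weeks and 453 to 1281 CPM over the 9 libraries of 12 weeks. It passed in no comparison of the full fit. KO libraries were at 630 to 694 CPM at 4 weeks and 896 to 1281 CPM in CD11b-low cells of 12 weeks. With limma voom it was higher at 12 weeks in KO (adjusted p = 0.0156) and WT cells (0.0106).

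Among the genes of oxygen sensing, Epas1, which encodes the HIF-2 alpha subunit, was the 1 that passed in the full fit. It was at 26.7, 8.53 and 17.4 CPM in CD11b-high, 21.7, 5.34 and 4.47 CPM in KO CD11b-low and 4.23, 2.10 and 1.96 CPM in WT libraries of 12 weeks. Replicate 1 was the highest in each of the 3 groups, and every KO library was above every WT library. Replicate 1 of both KO populations also had the highest eosinophil and B cell marker sums, though the lowest Cd79a. The part of such cells in the Epas1 levels was not tested. CD11b-high cells had 6.34-fold more than WT cells (log2 2.66 ± 0.58, edgeR adjusted p = 0.00494), and the call was kept under each of the 12 alternatives. KO CD11b-low cells had 3.80-fold more without passing (log2 1.93 ± 0.56, edgeR adjusted p = 0.0727). Without KO replicate 1 that log2 fold change was 0.83, and without KO replicate 3 it was 2.29 and passed (edgeR adjusted p = 0.0404). It also passed with DESeq2 (0.0104) and without the filter on low counts (8.32e-06).

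At 4 weeks Epas1 was at 3.96, 4.08 and 3.54 CPM in WT and 4.00, 9.56 and 4.66 CPM in KO libraries, and KO replicate 2 stood above the others (edgeR adjusted p = 1). Hif1a, the gene of the HIF-1 alpha subunit, is regulated mainly through its protein, so its RNA does not measure HIF activity. It was at 23.9, 30.9 and 24.3 CPM in CD11b-high and 20.3, 12.9 and 12.0 CPM in WT libraries of 12 weeks, without overlap. The 1.75-fold difference just missed the threshold (log2 0.81 ± 0.27, edgeR adjusted p = 0.0518) and passed without WT replicate 1 (0.0128), with size factors in place of TMM (0.0488), with DESeq2 (0.0294) and with limma voom (0.00456).

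Egln1, the main prolyl hydroxylase that marks HIF for decay, was at 10.8, 11.1 and 8.96 CPM in CD11b-high and 32.2, 11.9 and 14.8 CPM in WT libraries of 12 weeks. The sets did not overlap, with WT replicate 1 far above the other WT libraries, and the 1.91-fold difference did not pass (edgeR adjusted p = 0.0746). It passed without WT replicate 2 (log2 -1.20, edgeR adjusted p = 0.0323) and without the filter on low counts (0.0233). Egln3, a prolyl hydroxylase that HIF itself raises, had 3, 12 and 13 counts in CD11b-high libraries, 0, 29 and 0 counts in KO CD11b-low libraries and 0 counts in the 3 WT libraries of 12 weeks. For CD11b-high against WT cells Egln3 did not pass in the full fit (edgeR adjusted p = 0.0835) but did without the filter on low counts (0.00505) and with limma voom (0.0276). Of the 6 libraries of 4 weeks it had counts in 2, both WT, with 3 and 1. At such depth 0 counts allow a level of up to 0.0717 to 0.141 CPM per library (3 counts, counting error only).

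Of the other hypoxia response genes, Vegfa, the main blood vessel growth factor, had 2, 21 and 31 counts in CD11b-high libraries and 0 to 2 counts in each of the other 12. Adm, which encodes the vasodilator peptide adrenomedullin, had 0, 14 and 18 counts in CD11b-high libraries and 0 to 4 in each of the others. Neither had enough counts for the full fit. Where an alternative tested them against WT cells, Vegfa passed without the filter on low counts (edgeR adjusted p = 0.00543), with DESeq2 (0.0282), without CD11b-high replicate 1 (0.0128) and without WT replicate 1 (0.0460). It did not pass without WT replicate 2 (0.0871) or 3 (0.0663). Adm passed without the filter (edgeR adjusted p = 0.00890) and without CD11b-high replicate 1 (0.0249), but not with DESeq2 (0.103) or without any 1 WT library (0.0920 to 0.119). For both genes replicates 2 and 3 of the CD11b-high group held nearly all the counts, and replicate 1 was in the range of the CD11b-low libraries. In fits that left out a library both genes got past the filter only through these 2 libraries, so those calls are not separate support. The same 2 libraries were higher than replicate 1 for Slc2a3 (5.62 and 5.70 against 0.978 CPM) and Ndrg1 (5.72 and 4.25 against 0.774 CPM). They were also higher for Itgam (88.4 and 61.5 against 30.7 CPM), S100a9 (63.4 and 49.8 against 15.5 CPM) and Ccr7 (124 and 51.1 against 17.5 CPM), genes of CD11b, of neutrophils and monocytes, and of migrating dendritic cells. Their part in the levels of the hypoxia response genes was not tested.

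Ndrg1, a stress gene that hypoxia raises in many cell types, differed between ages. It had 6, 8 and 0 counts in WT and 3, 0 and 4 counts in KO libraries of 4 weeks, against 49, 16 and 40 counts in WT and 54, 39 and 96 counts in KO CD11b-low libraries of 12 weeks. All 6 CD11b-low libraries of 12 weeks were above all 6 of 4 weeks in CPM (0.509 to 3.13 against 0 to 0.275). The rise passed in KO cells (log2 4.95 ± 0.99, edgeR adjusted p = 0.00699), and under each of the 12 alternatives. In WT cells it passed with a log2 fold change of 3.29 ± 0.91 (edgeR adjusted p = 0.0197), and was lost without WT replicate 1 of 12 weeks (0.0504), WT replicate 1 of 4 weeks (0.0670) or WT replicate 3 of 4 weeks (0.0742), and with limma voom (0.0536). These fitted fold changes rest on a handful of counts at 4 weeks and depend on how low counts are treated. The change with age was not shown to differ between genotypes (interaction edgeR adjusted p = 0.733).

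Bnip3, a mitophagy receptor, and P4ha1, a collagen prolyl hydroxylase, are abundant HIF targets in many cells and passed in no comparison of the full fit. Bnip3 was at 9.06, 27.5 and 33.5 CPM in WT libraries of 12 weeks, so replicate 1 was the lowest and replicate 3 the highest of all 15 libraries. In the other 4 groups it was at 12.2 to 23.1 CPM. P4ha1 was at 18.0, 26.5 and 31.1 CPM in WT libraries of 12 weeks, all below the 32.6, 31.8 and 41.1 CPM of the WT libraries of 4 weeks, and at 22.6 to 41.0 CPM in the 9 KO libraries.

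**Figure D4:**
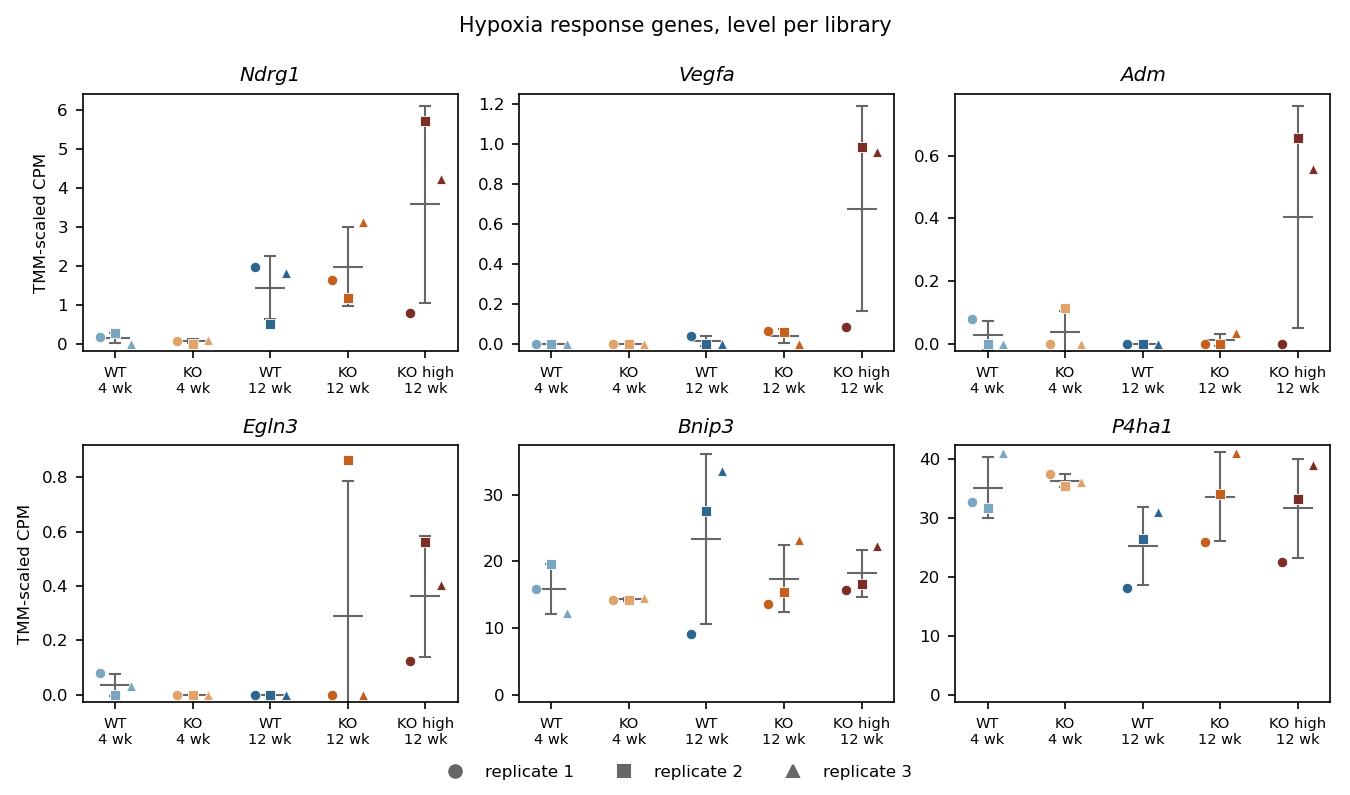
Level of Egln3 and 5 hypoxia response genes in each library, in TMM-scaled CPM on linear axes, by group (KO high is the CD11b-high KO group); symbols are replicates and bars the mean and SD (n = 3). Vegfa and Adm are near 0 outside replicates 2 and 3 of the CD11b-high group, Ndrg1 is near 0 in the 6 libraries of 4 weeks, and Bnip3 overlaps between the groups compared, as P4ha1 does except between the WT ages.

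The share of each paralogue within its family does not depend on the library total, so it was followed next, as a share of the summed level per kilobase. Hk3 made up 45.5 to 80.7% of the 3 hexokinases, Pfkp 63.6 to 87.4% of phosphofructokinase-1 and Pfkfb4 92.0 to 98.6% of the 2 Pfkfb members. Over 11 shares and 6 comparisons 16 of 66 tests (24.2%) had groups without overlap. With 3 libraries against 3 the exact permutation test, two-sided, cannot go below 0.1, and after adjustment over the 66 tests the smallest value was 0.4125, so no share passed.

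Of the 2 lactate carriers, the share of Slc16a3 was 63.4, 73.1 and 68.2% in WT, 35.8, 43.2 and 59.5% in KO CD11b-low and 32.9, 21.3 and 49.6% in CD11b-high libraries of 12 weeks. Both KO populations lay below the WT group (exact permutation p = 0.1 for each, the lowest possible). At 4 weeks it was 67.3, 57.9 and 55.8% in WT and 46.5, 46.8 and 55.3% in KO libraries, also without overlap but with the nearest pair 55.8 against 55.3%. The share of Aldoc among the 2 aldolases was 3.51, 4.33 and 4.04% in WT, 8.64, 6.21 and 6.68% in KO CD11b-low and 13.2, 8.41 and 8.26% in CD11b-high libraries of 12 weeks. Replicate 1 of the WT group did not stand far apart in this share, unlike in the level of either gene.

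The share of Epas1 in the sum of Hif1a and Epas1 was 18.0, 14.6 and 14.7% in WT, 50.9, 21.3 and 25.2% in KO CD11b-low and 54.0, 22.5 and 43.0% in CD11b-high libraries of 12 weeks. Both KO populations were above the WT group (exact permutation p = 0.1 for each). In each KO population replicate 1 held the highest share and replicate 2 the lowest.

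**Figure D5:**
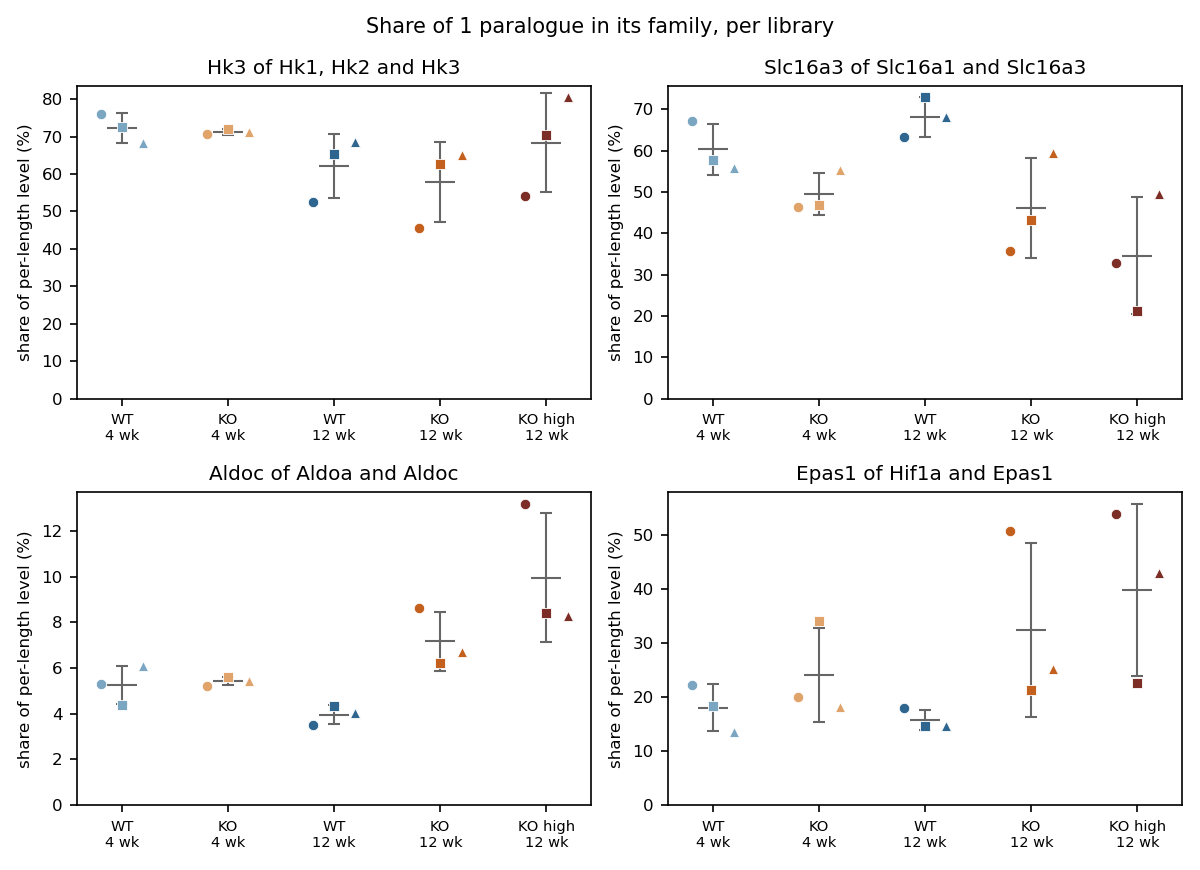
Share of 1 paralogue in the summed per-length level of its family, in percent on axes from 0, for each library by group (KO high is the CD11b-high KO group); symbols are replicates and bars the mean and SD (n = 3). At 12 weeks the Slc16a3 share is lower, and the Aldoc and Epas1 shares higher, in all 6 KO libraries than in all 3 WT libraries.

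Other genes of glucose metabolism were followed in a list of 46, of which 39 were tested. For KO CD11b-low against WT cells at 12 weeks 2 were higher (2.60% of all genes were) and none lower (0.497%), with a list median of 0.24 on the log2 scale against -0.04 over all genes. Slc2a6, a lysosomal hexose transporter, was at 32.2, 28.9 and 19.8 CPM in KO and 6.08, 11.2 and 7.26 CPM in WT libraries. Pdk4, a kinase that shuts pyruvate dehydrogenase as Pdk1 does, was at 10.01, 7.57 and 9.76 CPM in KO and 2.90, 2.39 and 3.47 CPM in WT libraries. KO values lay above all WT values for both, with rises of 3.28-fold for Slc2a6 (edgeR adjusted p = 0.00722) and 3.13-fold for Pdk4 (0.00438). Pdk4 was 4.86-fold higher in CD11b-high than in WT cells (edgeR adjusted p = 6.77e-05), where Pdk1 was lower.

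For CD11b-high KO against WT cells 5 of the 39 were higher, where 9.23% of all genes were, and 2 lower, where 5.60% were. Slc2a6 was 3.82-fold higher (edgeR adjusted p = 0.000887). Fbp1, which runs the phosphofructokinase step in reverse, was at 1.55, 287 and 21.4 CPM in CD11b-high and 0.443 to 0.548 CPM in WT libraries (edgeR adjusted p = 0.0434), and its level was set mostly by CD11b-high replicate 2. Taldo1, a transaldolase of the pentose phosphate pathway, was 1.97-fold lower, at 1570, 1446 and 1172 against 2302, 3063 and 2871 CPM (edgeR adjusted p = 0.00539). Between CD11b-high and CD11b-low KO cells edgeR called 0, with 7 at an unadjusted p under 0.05, DESeq2 called 3 and limma voom 0.

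With age in WT cells 2 of the 39 were higher (8.79% of all genes were) and 8 lower (8.39%), and in KO cells 1 was higher (4.81%) and 2 lower (2.08%). Mpc2, a subunit of the mitochondrial pyruvate carrier, was at 42.9, 24.6 and 31.0 CPM in WT libraries of 12 weeks and 109, 107 and 63.3 CPM in those of 4 weeks, 2.83-fold lower (edgeR adjusted p = 0.0379). In KO cells it was 5.08-fold lower at 12 weeks (edgeR adjusted p = 0.00924). Bsg, the chaperone of the Slc16a carriers, was 3.74-fold lower in WT (edgeR adjusted p = 0.0308) and 4.74-fold lower in KO cells (0.0302). Slc2a6 was 3.35-fold higher in KO cells at 12 weeks (edgeR adjusted p = 0.00498).

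Bpgm, the red cell enzyme that makes bisphosphoglycerate, was the 1 gene of this list that passed between genotypes at 4 weeks. It was at 17.8, 18.2 and 15.05 CPM in KO and 56.4, 216 and 39.5 CPM in WT libraries, 6.11-fold lower in KO cells (edgeR adjusted p = 0.0349). Erythroid markers moved with it: Hbb-bs, a beta-globin gene, was at 22.6 to 81.4 CPM in KO and 845 to 3914 CPM in WT libraries of 4 weeks, with WT replicate 2 highest for both genes. Their part in the difference was not tested.

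The second list held 45 other genes of HIF function and hypoxia response, of which 44 were in the table and 35 were tested. Between KO CD11b-low and WT cells of 12 weeks 1 was higher (2.60% of all genes were) and 1 lower (0.497%). For CD11b-high against WT cells 5 were higher (9.23%) and 5 lower (5.60%). Bhlhe40, a transcriptional repressor that hypoxia raises, was at 673, 827 and 741 CPM in CD11b-high and 90.2, 257 and 469 CPM in WT libraries (2.74-fold, edgeR adjusted p = 0.0185). Hif1an, which blocks the HIF activation domain in the presence of oxygen, was 1.88-fold higher (edgeR adjusted p = 0.0461). Arnt2, a relative of the HIF partner Arnt, was at 13.9, 4.59 and 7.47 CPM against 0 to 0.228 CPM (edgeR adjusted p = 0.000567).

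Known HIF targets were among the lower genes as well. Car9, a carbonic anhydrase widely used as a hypoxia marker, was at 12.1, 11.4 and 7.62 CPM in CD11b-high and 15.3, 22.98 and 20.6 CPM in WT libraries, 1.89-fold lower (edgeR adjusted p = 0.0302). Pgf, a relative of Vegfa, was 2.16-fold lower (edgeR adjusted p = 0.0147) and Ppfia4 1.85-fold lower (0.0469). Higher Slc2a1 and Slc2a3 thus stood beside lower Car9 and Pgf in the same libraries. The median of the list was 0.14 on the log2 scale, against -0.01 over all genes.

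With age Angptl4, a secreted lipase inhibitor that fasting and hypoxia raise, was 2.22-fold lower in KO cells at 12 weeks, at 73.6, 66.1 and 84.5 against 172, 163 and 162 CPM (edgeR adjusted p = 0.0100). In WT cells Higd1a, a mitochondrial hypoxia gene, was 2.19-fold higher at 12 weeks (edgeR adjusted p = 0.00890), while Arnt was 1.85-fold lower (0.0172) and Cxcr4, a chemokine receptor, 2.85-fold lower (0.0488). Between genotypes at 4 weeks edgeR called 0 of the 35, with 2 at an unadjusted p under 0.05, and DESeq2 and limma voom called 0. Between CD11b-high and CD11b-low KO cells edgeR called 0, with 5 at an unadjusted p under 0.05, and limma voom called 1.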

How the data were processed

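RNA of 15 libraries was sequenced after amplification with a SMARTer kit on a HiSeq instrument, per the labels' protocols. The authors deposited raw read counts per gene, with 1 column per library. STAR (alignment) and featureCounts from Subread (counting) are named in the submitters' processing notes. Their versions, the strand setting, the handling of multiply matching reads and the genome build are not given in the sources used here, so overlapping and antisense genes cannot be told apart. Of 40780 rows, 270 repeated a gene with the same counts and were removed, leaving 40510 genes.

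The edgeR package (4.0.16, in R 4.3.3) was used for the deposited counts, keeping genes by filterByExpr (minimum count 10, minimum total 15), leaving 13284. A robust quasi-likelihood fit with TMM scaling held all 15 libraries and 1 coefficient per group, with 10 residual degrees of freedom, and gave 7 two-sided comparisons. P-values carry the Benjamini and Hochberg adjustment, with a threshold of 0.05, and measure the spread between pools of mice. The step was tested on simulated data. Alternatives were DESeq2 1.42.0, limma 3.58.1 voom with quality weights, size factors in place of TMM, no filter, only the groups compared, a replicate block, and leaving out each library.

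Replicate numbers come from the sample titles. Deviations from the group means of same-numbered CD11b-low and CD11b-high KO libraries correlated across genes at 0.113 to 0.429. For same-numbered libraries of other pairs of groups the range was -0.214 to 0.364, and libraries of different number reached 0.229. Among the groups of 12 weeks alone, same-numbered pairs ran from 0.019 to 0.429 and pairs of different number from -0.362 to 0.167. These values do not establish pairs. The replicate number was used only as a block in alternatives, and the main fit treated all libraries as independent.

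Exon lengths and shared runs of 50 bases were read from GENCODE M21. All 32 members are named. Of 2 further lists, up to 3 genes per direction and comparison are named, those with the largest fold change that passed, did not overlap and reached a mean of 5 CPM. The members, lists and alternatives were chosen with earlier results of these data known.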

Additional observations from a re-analysis of the deposited data

How the results depend on the processing

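No fold change reversed under an alternative among the members and comparisons of the full fit that passed in at least 1 setting. Other members and comparisons were not covered by that check. Adm, which the full fit did not test, changed sign with age in KO cells. Its log2 fold change was -1.485 without the filter and 1.84 without KO replicate 2 of 4 weeks. Of 16 calls, 4 passed under every alternative (Hk3, Pfkfb3 in WT cells with age, Ndrg1 in KO cells with age, and Epas1 in CD11b-high against WT cells), and 8 in every fit without a library. The number of members that passed, 1 for KO CD11b-low against WT cells of 12 weeks, was 2 with DESeq2, 0 with limma voom, 5 without the filter on low counts, 0 with only the groups compared, and 0 to 2 without a library. For CD11b-high against CD11b-low KO cells it was 0, against 1 without the filter and 1 with the replicate block and only those 2 groups. For CD11b-high KO against WT cells it was 8, against 2 with only the groups compared and 5 to 9 without a library. With age in KO cells it was 1, against 3 with DESeq2, 6 with limma voom, 4 without the filter, 4 with only the groups compared, 2 with the replicate block and 1 to 2 without a library. With age in WT cells it was 6 (1 higher and 5 lower), against 11 with limma voom (5 higher and 6 lower). It was 3 with only the groups compared and 2 to 8 without a library. For the interaction it was 0, against 1 without the filter. For CD11b-high KO against WT cells the counts without the filter, with DESeq2 and without WT or CD11b-high replicate 1 include Vegfa or Adm, which the full fit did not test. The cause of these differences was not tested. The fits of 2 groups and of left-out libraries also held fewer libraries. The replicate block in the fit of all groups left 1, 0, 0, 6 and 5 calls for KO against WT at 12 and 4 weeks, CD11b-high against CD11b-low KO cells, CD11b-high KO against WT cells, and age in WT cells. It ended the calls of Aldoc and Pdk1 in CD11b-high against WT cells and of Hk1 with age in WT cells. Over all genes the counts for KO against WT at 12 weeks were 412, 873 with DESeq2, 1090 without the filter, 189 with only the groups compared and 230 to 426 without a library. Low counts limit Slc2a3, Ndrg1, Egln3, Vegfa and Adm.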
